A study of Mus musculus with 25 samples.

Results

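Chemokines and chemokine receptors were followed in purified mouse hepatocytes in which the growth regulator YAP had been raised in 2 different ways. The set was chosen by name. It takes the symbols of the Ccl, Cxcl, Ccr, Cxcr and Ackr families together with Cx3cl1, Cx3cr1, Xcl1 and Xcr1, provided that a symbol had 10 or more counts summed over the 25 libraries. Of the 37117 symbols in the deposited count table, 61 matched these names and 46 reached the sum, 28 ligands and 18 receptors. The members closest to the limit were Ccl28 with 10 counts and Ccr4 and Cxcl5 with 12 each, and the 15 symbols below it had 0 to 3 counts. A filter on low counts kept 31 of the 46 members for testing, among 12970 genes. Of these 31, 12 passed only because of the libraries with raised YAP activity (Ackr1, Ccl12, Ccl3, Ccl4, Ccl5, Ccl7, Ccr1, Ccr2, Ccr3, Cx3cr1, Cxcr4 and Xcr1), so the tested members were bound to include some that differ.

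Chemokines are small secreted proteins that direct the movement of leukocytes along concentration gradients. Their receptors cross the membrane several times and signal mostly through inhibitory G proteins, while the atypical receptors (Ackr) bind chemokines and clear or store them without that signal. In liver, Kupffer cells, sinusoidal endothelial cells, stellate cells and stressed hepatocytes are known sources of the ligands, and monocytes, neutrophils and lymphocytes that enter the organ carry most of the receptors.

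YAP is a transcriptional coactivator that the kinases LATS1 and LATS2 hold inactive. ApoYap mice carry ApoE-rtTA and TRE-hYAP, a doxycycline-dependent activator driven by ApoE sequences and a human YAP transgene under its control that the mouse count does not measure, and were sampled untreated (ApoYap ctrl, n = 4) or after 1 week on drinking water with 0.2 mg/ml doxycycline and 2.5% sucrose (ApoYap Dox, n = 3). Mice with both alleles of Lats1 and of Lats2 floxed were sampled untreated (Lats1/2 flox ctrl, n = 4) or 1 week after an AAV8 virus that carries Cre under the hepatocyte promoter TBG (Lats1/2 KO, n = 3). C57BL/6 mice without these alleles were untreated (BL/6 ctrl, n = 4), given the doxycycline water for 1 week (BL/6 Dox, n = 4) or sampled 24 hours after the Cre virus (BL/6 AAV-Cre, n = 3). All libraries came from perfused liver, with hepatocytes enriched by low-speed spins and sorted. No label ties a replicate to its own animal, and none gives sex, age or batch, so the p-values speak of the spread among libraries, which may be technical.

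Libraries held 8107539 to 16515330 counts, so 1 count was worth 0.0361 to 0.141 CPM (counts scaled to 1e6 per library after TMM). The kit reads 3′ ends, so CPM does not depend on transcript length and levels of different genes can be set side by side. The 3 Lats1/2 KO libraries held Lats1 at 5.10, 4.79 and 2.97 CPM against 12.3 to 14.9 CPM in their controls, a fall of 1.67 on the log2 scale (SE 0.23, adjusted p = 4.1e-06, edgeR quasi-likelihood test). Hepatocyte markers were detected in every library (11 of 11), and their summed level was 73250 to 94481 CPM in ApoYap ctrl, 28976 to 41955 CPM in ApoYap Dox, 85935 to 98115 CPM in Lats1/2 flox ctrl and 54080 to 59134 CPM in Lats1/2 KO. All 11 were called lower in both comparisons after TMM scaling. As a percent of all counts, with no TMM factor, their sum was 7.17 to 8.67% in ApoYap ctrl, 5.31 to 7.43% in ApoYap Dox, 7.13 to 8.18% in Lats1/2 flox ctrl and 6.53 to 6.97% in Lats1/2 KO, so the ApoYap groups overlapped on that scale.

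**Figure D1:**
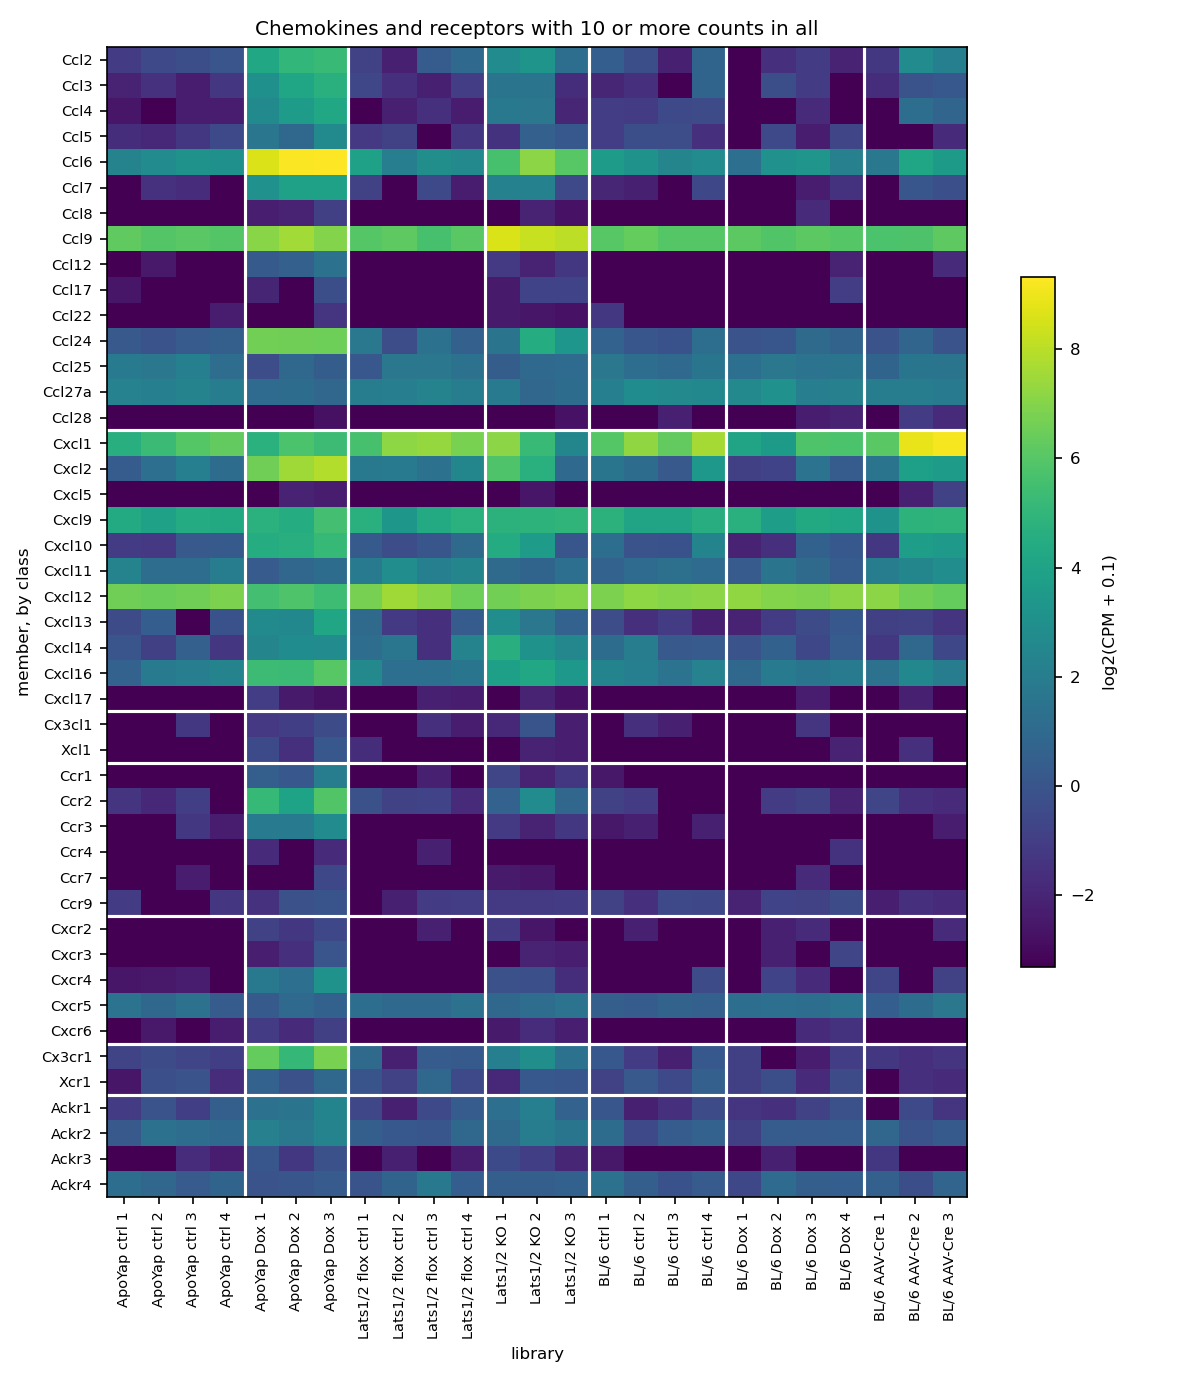
Level of 45 of the 46 members in each of the 25 libraries, as log2(CPM + 0.1), with members in rows by class and libraries in columns by group. Ccl9, Cxcl1, Cxcl9 and Cxcl12 are bright (high) in every column, while Cx3cr1 and Ccr2 are dark (low) outside the ApoYap Dox and Lats1/2 KO columns.

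After induction of YAP, 23 of 31 tested members were called higher and 4 lower (adjusted p under 0.05, edgeR quasi-likelihood test with Benjamini-Hochberg adjustment over 12970 genes), where 35.0% of all tested genes were called higher and 32.0% lower. In the Lats1/2 knockout 20 of 31 were called higher and 2 lower, against 20.6% and 17.4% of all tested genes. Over the 19 members that pass the filter without the ApoYap Dox and Lats1/2 KO libraries, 11 were called higher and 4 lower after induction and 11 and 2 in the knockout, while of the other 12, 12 and 9 were called higher. The median log2 fold change over the tested members was 3.81 after induction and 2.11 in the knockout (2.08 with 3 members at their lower bound and 1 at its count ratio), where the median over all tested genes was 0.07 and −0.03. The ranges of treated and untreated libraries did not overlap for 23 members that were higher and 4 that were lower after induction (36.7% and 32.6% of all tested genes), and for 15 and 2 in the knockout (20.9% and 18.8%). These member medians and range counts include the 12 members that passed the filter only through the ApoYap Dox and Lats1/2 KO libraries. They are therefore partly set by the filter. The same 20 members were called higher in both comparisons, while Ccl5, Ccr1 and Xcr1 were called higher after induction and not in the knockout. The difference between the 2 effects was itself not called for Ccl5 (adjusted p = 0.21), Ccr1 (0.19) or Xcr1 (0.12). With only the knockout and floxed control libraries filtered and fitted, 23 members were tested and 11 were called higher. Ccl12, Ccl3, Ccl4, Ccl7, Ccr3 and Cxcr4 were then below the filter, and Cxcl13, Cxcl14 and Cxcl2 missed the threshold.

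Markers of other cell types moved with these members, where 35.0% of all tested genes were called higher after induction and 20.6% in the knockout. All 15 macrophage and Kupffer cell markers were called higher in both comparisons, and each was detected in every library. Their summed level was 113 to 247 CPM in ApoYap ctrl and 7229 to 11734 CPM in ApoYap Dox, 109 to 303 CPM in Lats1/2 flox ctrl and 753 to 1753 CPM in Lats1/2 KO, and 131 to 295, 68.5 to 284 and 121 to 358 CPM in the BL/6 ctrl, Dox and AAV-Cre groups. All 14 sinusoidal endothelial markers were also called higher in both, with sums of 78.2 to 193 and 661 to 1178 CPM in ApoYap ctrl and Dox and 83.0 to 228 and 411 to 985 CPM in Lats1/2 flox ctrl and KO. Of 10 stellate cell markers, 5 were called higher after induction and 9 in the knockout. Neutrophil markers, of which 4 of 8 could be tested, summed to 0.283 to 1.56 CPM in ApoYap ctrl, 12.9 to 31.4 CPM in ApoYap Dox, 0.329 to 0.887 CPM in Lats1/2 flox ctrl and 1.11 to 3.97 CPM in Lats1/2 KO, and Ly6g, the defining one, was at 0 in all 25 libraries. Of 7 tested monocyte markers 6 were called higher in each comparison and Fn1, also made by hepatocytes and named after its values were seen, was called lower after induction, and the summed level was 402 to 526 CPM in ApoYap ctrl, 511 to 577 CPM in ApoYap Dox, 404 to 444 CPM in Lats1/2 flox ctrl and 329 to 549 CPM in Lats1/2 KO. On this scale the monocyte sums overlapped between the groups of each comparison. The median log2 fold change over the 7 tested monocyte markers was 5.52 after induction and 3.51 in the knockout. As a percent of all counts, with no TMM factor, the sums were 0.0365 to 0.0515% in ApoYap ctrl and 0.0858 to 0.102% in ApoYap Dox, without overlap. In Lats1/2 flox ctrl and KO they were 0.0345 to 0.0395% and 0.0376 to 0.0624%, with overlap. Only 3 markers each could be tested for dendritic cells (of 7 listed), bile duct cells (of 8) and B cells (of 6). Those called higher after induction and in the knockout were 3 and 2 for dendritic cells and 2 and 3 for bile duct cells. For B cells they were 2 and 1. Summed levels of the full lists did not overlap in either pair for dendritic and bile duct cells, or for B cells after induction. B cell sums overlapped between Lats1/2 flox ctrl (0.341 to 8.34 CPM) and KO (1.64 to 3.55 CPM). The part of these cell types in the chemokine results was not tested. In bulk samples more cells of a type and more RNA per cell cannot be told apart.

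Of 11 tested CC ligands, 9 were called higher and 2 lower after induction, and 8 higher and 1 lower in the knockout. Among all tested genes 35.0% were called higher and 32.0% lower after induction, and 20.6% and 17.4% in the knockout. Ccl12, Ccl3, Ccl4, Ccl5 and Ccl7 passed the filter only through the libraries with raised YAP activity. Ccl6 (chromosome 11, 83587882 to 83593087), which attracts macrophages and other myeloid cells, stood at 5.02, 6.71, 8.83 and 8.02 CPM in the ApoYap ctrl libraries and at 409, 603 and 642 CPM in ApoYap Dox. The lowest induced library was far above the highest control, and the log2 fold change was 6.28 (SE 0.55, adjusted p = 5.9e-09). In the Lats1/2 knockout Ccl6 went from 14.9, 4.09, 7.5 and 6.11 CPM to 49.4, 142 and 65.1 CPM, again without overlap, a log2 change of 3.39 (SE 0.51, adjusted p = 3.9e-05). Over the 11 BL/6 libraries it ranged from 2.40 to 17.3 CPM. Ccl24 (chromosome 5, 135569937 to 135573049), a ligand for the eosinophil receptor CCR3, rose from 1.06, 0.838, 1.14 and 1.30 CPM to 99.0, 94.8 and 91.8 CPM in tightly grouped induced libraries, a log2 change of 6.45 (SE 0.51, adjusted p = 6.8e-10). Its knockout libraries were uneven, at 2.85, 22.6 and 9.81 CPM against 3.29, 0.681, 2.5 and 1.38 CPM, and the first of them lay inside the control range. The knockout fold change of 2.59 (SE 0.49, adjusted p = 0.00029) became 1.74, adjusted p = 0.0040 without Lats1/2 KO 2.

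The monocyte attractants Ccl2, Ccl7 and Ccl12, neighbours on chromosome 11 that act on CCR2, were all called higher in both comparisons. Ccl2 (82035571 to 82037453) stood at 0.353, 0.587, 0.727 and 0.902 CPM in ApoYap ctrl and 19.0, 32.6 and 37.4 CPM in ApoYap Dox, and at 0.439, 0.114, 1.19 and 1.87 CPM in Lats1/2 flox ctrl and 6.75, 9.24 and 2.28 CPM in Lats1/2 KO. The groups did not overlap in either pair. Its log2 fold changes were 5.55 (SE 0.71, adjusted p = 6.4e-07) and 2.70 (SE 0.70, adjusted p = 0.0047), the second becoming 3.37, adjusted p = 0.0036 without Lats1/2 flox ctrl 4. Ccl7 rose from 0, 0.252, 0.208 and 0 CPM to 8.42, 15.2 and 15 CPM after induction (6.73, SE 0.85, adjusted p = 2.7e-07, and 7.51, adjusted p = 1.9e-06 without ApoYap ctrl 2). In the knockout Ccl7 went from 0.439, 0, 0.596 and 0.0986 CPM to 4.67, 4.58 and 0.583 CPM, where knockout library 3 fell among its controls (3.49, SE 0.82, adjusted p = 0.0017, and 4.10, adjusted p = 0.0026 without Lats1/2 flox ctrl 3). Ccl12 had 1 count in the 4 ApoYap ctrl libraries together and 112 in the 3 ApoYap Dox libraries, a ratio of scaled counts of 72.6 (95% interval 12.8 to 2892). Its fitted log2 value, which depends on the prior count, was 5.68 (adjusted p = 1.3e-05) and 7.30, adjusted p = 6.5e-05 without ApoYap ctrl 2. It had no count in Lats1/2 flox ctrl and 4, 2 and 6 counts in the knockout libraries, at least 3.24-fold higher when the control group is set to 3 counts over its libraries (adjusted p = 0.014). All such intervals and limits cover counting error only.

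Ccl3, Ccl4 and Ccl5, which attract macrophages and T cells, were all called higher after induction, and Ccl3 and Ccl4 also in the knockout. Ccl3 rose from 0.141, 0.252, 0.104 and 0.301 CPM in ApoYap ctrl to 7.95, 18 and 25.9 CPM in ApoYap Dox, a log2 change of 6.37 (SE 0.84, adjusted p = 7.1e-07). Ccl4 had 3 counts in the ApoYap ctrl libraries together and 854 in ApoYap Dox, where it reached 6.36, 12.5 and 19.4 CPM, a ratio of scaled counts of 184 (95% interval 62.9 to 896). The control libraries of both genes were at or near 0 and did not reach the induced ones. In the knockout, libraries 1 and 2 were raised and library 3 was not. Ccl3 stood there at 2.85, 2.81 and 0.212 CPM against 0.119 to 0.549 CPM in the controls, and Ccl4 at 3.37, 3.08 and 0.159 CPM against 0 to 0.238 CPM. The knockout call for Ccl3 (2.49, SE 0.90, adjusted p = 0.032) was lost without any of Lats1/2 flox ctrl 2, 3 and 4 and KO 1 and 2, with log2 values of 2.07, adjusted p = 0.15 without KO 2 to 2.6, adjusted p = 0.057 without flox ctrl 4. For Ccl4 the knockout log2 fold change was 4.16 (SE 1.02, adjusted p = 0.0026), and it was 4.74, adjusted p = 6.4e-05 without Lats1/2 KO 3. Ccl5, made mainly by T and NK cells, was at 0.212, 0.168, 0.312 and 0.602 CPM and 3.00, 1.81 and 6.23 CPM in ApoYap ctrl and Dox (3.51, SE 0.65, adjusted p = 3.8e-05, and 2.91, adjusted p = 0.00096 without ApoYap Dox 3). The difference for Ccl5 in the knockout was 1.68 (adjusted p = 0.081) and was not called by edgeR with TMM scaling. It was called with total counts alone (2.16, adjusted p = 0.021) and in 1 of 7 fits with 1 library left out. Summed T and NK cell markers were 1.40 to 1.93 CPM in ApoYap ctrl, 3.89 to 6.90 CPM in ApoYap Dox, 0.987 to 2.96 CPM in Lats1/2 flox ctrl and 1.17 to 2.33 CPM in Lats1/2 KO, with 1 of 2 testable markers called higher after induction and none in the knockout, and their part was not tested.

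Ccl9 (chromosome 11, 83572919 to 83578636) had its highest levels in the knockout. It is a macrophage and dendritic cell attractant that acts on CCR1, and it was abundant in untreated hepatocyte libraries. Its level was 75.8, 61.5, 69.0 and 60.8 CPM in ApoYap ctrl, 135, 191 and 126 CPM in ApoYap Dox, 62.9, 73.6, 49.9 and 67.9 CPM in Lats1/2 flox ctrl and 393, 311 and 264 CPM in Lats1/2 KO. Every knockout library was above every induced one, and the 11 BL/6 libraries ranged from 53.0 to 81.9 CPM. The log2 fold change was 1.17 (SE 0.16, adjusted p = 4.3e-07) after induction and 2.34 (SE 0.16, adjusted p = 2.1e-10) in the knockout, and the difference between the 2 effects was 1.17 (SE 0.23, adjusted p = 0.00032). Leaving out any library kept that difference between 1.01 and 1.38.

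Ccl27a and Ccl25 were the CC ligands called lower after induction. Ccl27a, a ligand for CCR10 known from skin, stood at 4.80, 4.36, 4.88 and 3.91 CPM in ApoYap ctrl and 2.02, 2.13 and 1.69 CPM in ApoYap Dox (−1.20, SE 0.26, adjusted p = 0.00026), with no overlap. In the knockout it was at 3.55, 1.71 and 2.12 CPM against 3.95, 4.09, 5.00 and 3.85 CPM in the controls, all 3 below the lowest control (−0.79, SE 0.27, adjusted p = 0.021). That knockout call was lost without Lats1/2 KO 2 (−0.59, adjusted p = 0.15), KO 3 (−0.70, adjusted p = 0.080) or flox ctrl 3 (−0.70, adjusted p = 0.060). Ccl25, which guides T cells through CCR9, fell from 3.46, 3.19, 4.36 and 2.21 CPM to 0.686, 1.81 and 1.21 CPM after induction (−1.43, SE 0.36, adjusted p = 0.0012). Its knockout difference was −0.50 (adjusted p = 0.31).

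**Figure D2:**
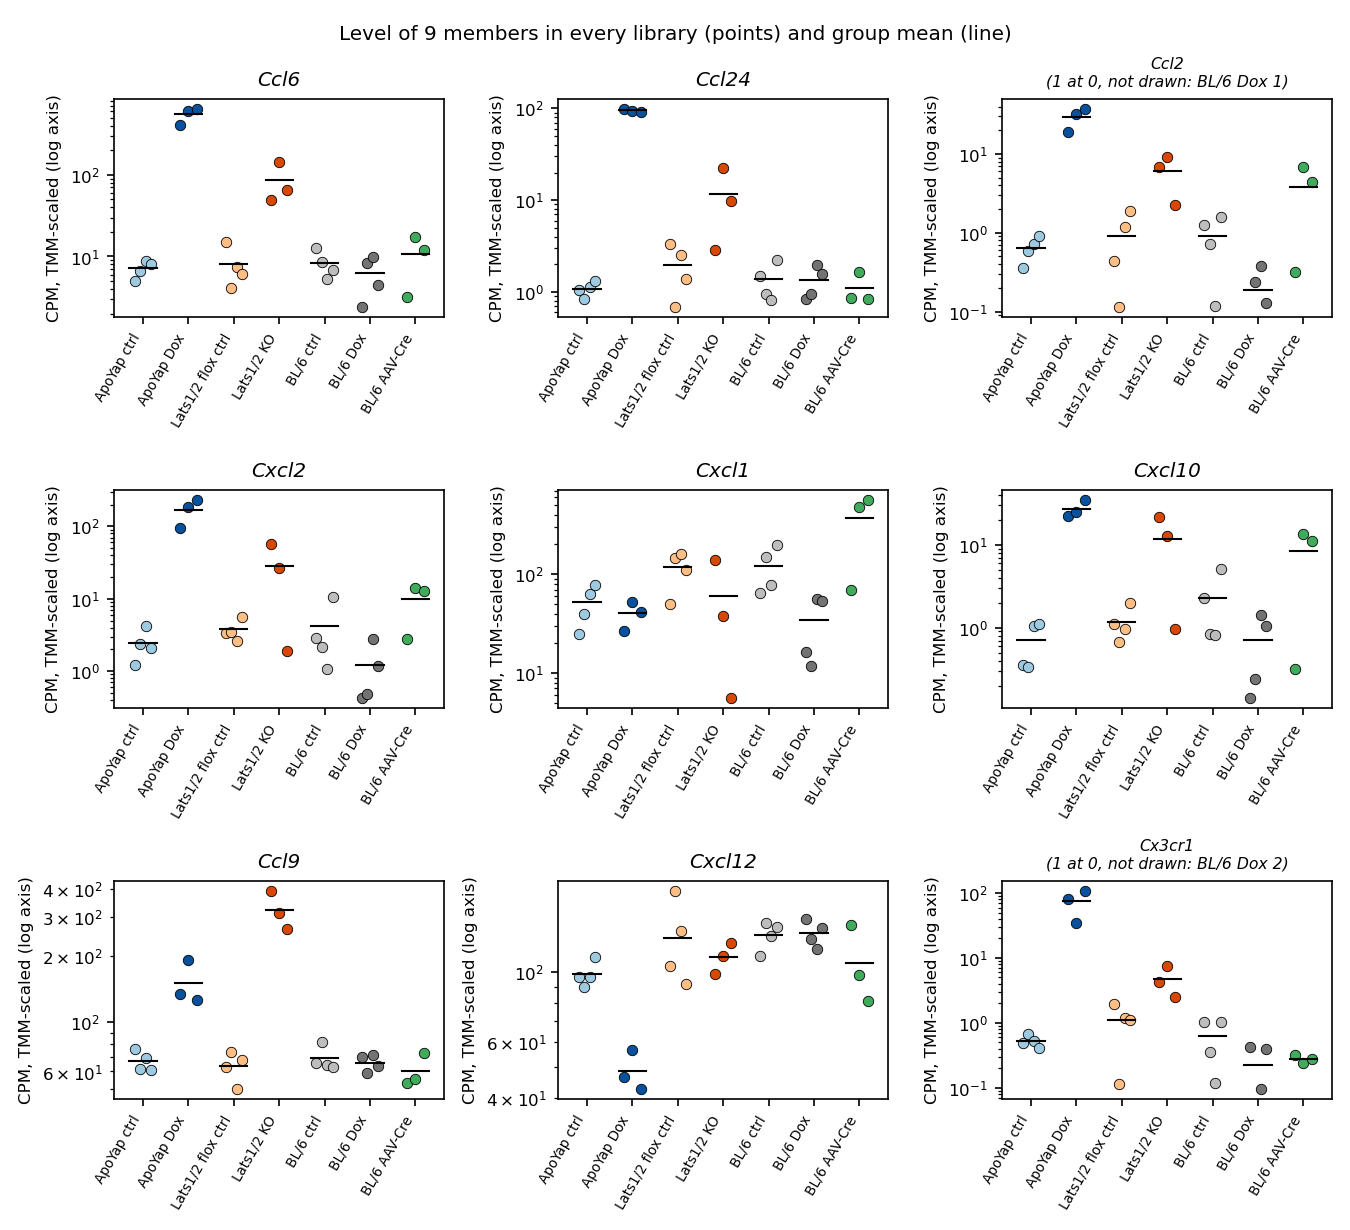
CPM of 9 members in every library (points) with the group mean (line), on log axes that differ between panels. Ccl6, Ccl24, Ccl2 and Cx3cr1 were highest in ApoYap Dox, Ccl9 was highest in Lats1/2 KO, Cxcl12 was lowest in ApoYap Dox, and Cxcl1, Cxcl2 and Cxcl10 were spread widely within the Lats1/2 KO and BL/6 AAV-Cre groups.

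Of 9 tested CXC ligands, 5 were called higher and 2 lower after induction, and 5 higher and 1 lower in the knockout. For all tested genes the shares were 35.0% and 32.0% after induction, and 20.6% and 17.4% in the knockout. Cxcl2 (90903871 to 90905938) and Cxcl1 (90891241 to 90893115) both attract neutrophils through CXCR2 and are neighbours on chromosome 5. Cxcl2 rose from 1.20, 2.35, 4.26 and 2.11 CPM in ApoYap ctrl to 95.5, 184 and 232 CPM in ApoYap Dox, a log2 change of 6.14 (SE 0.88, adjusted p = 5.2e-06). Cxcl1 was at 24.9, 39.8, 63.6 and 78.6 CPM and 26.8, 52.7 and 41 CPM in the same libraries, so the induced libraries lay inside the control range (−0.36, SE 0.82, adjusted p = 0.71). In the knockout Cxcl2 was at 57.5, 26.3 and 1.91 CPM against 3.40, 3.52, 2.62 and 5.52 CPM, with library 3 below its controls. The Cxcl2 call (2.89, SE 0.82, adjusted p = 0.0094) was lost without Lats1/2 KO 1 (1.87, adjusted p = 0.10). Cxcl1 spread there from the level of its controls to far below it, at 139, 37.8 and 5.57 CPM against 49.8, 147, 159.6 and 111 CPM (−0.96, SE 0.83, adjusted p = 0.40). The same order of knockout libraries, with library 1 highest and library 3 lowest, was seen for both genes.

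Of the CXCR3 ligands, which attract activated T cells and are classical interferon targets, Cxcl10 was the 1 called higher by edgeR with TMM scaling. It went from 0.353, 0.335, 1.04 and 1.10 CPM in ApoYap ctrl to 22.3, 24.6 and 35.0 CPM in ApoYap Dox (5.32, SE 0.97, adjusted p = 7.4e-05). The knockout libraries were at 21.6, 12.7 and 0.955 CPM against 1.10, 0.681, 0.953 and 1.97 CPM, with library 3 among the controls (3.27, SE 0.92, adjusted p = 0.0088), and without Lats1/2 KO 1 the call was lost (2.48, adjusted p = 0.062). Cxcl9 ranged from 14.9 to 22.2 CPM in ApoYap ctrl and from 22.8 to 47.4 CPM in ApoYap Dox, and the groups did not overlap. Its difference of 0.71 was not called by edgeR with TMM scaling (adjusted p = 0.082) but was called by DESeq2 (0.82, adjusted p = 0.030), with RLE scaling (0.82, adjusted p = 0.049), with total counts (1.64, adjusted p = 0.00045), with only its own groups in the fit (0.70, adjusted p = 0.024) and without ApoYap Dox 2 (0.90, adjusted p = 0.050). Cxcl11, annotated as a polymorphic pseudogene on this reference, was called lower in both comparisons. It was at 5.02, 2.18, 2.18 and 3.81 CPM in ApoYap ctrl and 1.16, 1.72 and 2.12 CPM in ApoYap Dox (−1.0, SE 0.35, adjusted p = 0.015), a call lost without ApoYap ctrl 1 (−0.71, adjusted p = 0.091) or ApoYap Dox 1 (−0.79, adjusted p = 0.087). In the knockout Cxcl11 went from 3.51, 7.38, 4.29 and 5.23 CPM to 1.99, 1.57 and 2.33 CPM, with no overlap (−1.37, SE 0.36, adjusted p = 0.0039).

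Cxcl12 (chromosome 6, 117168535 to 117181367), the ligand of CXCR4 and ACKR3, was one of the most abundant members in every untreated group and was lower after induction. It stood at 97.0, 89.9, 96.8 and 112 CPM in ApoYap ctrl and 46.8, 56.7 and 42.7 CPM in ApoYap Dox, and the groups did not overlap (−1.02, SE 0.19, adjusted p = 4.1e-05). In the knockout it was at 98.9, 113 and 124 CPM against 105, 181, 135 and 91.8 CPM, inside the control range (−0.19, SE 0.18, adjusted p = 0.44). The 2 effects differed by 0.83 (SE 0.26, adjusted p = 0.018), a call lost without ApoYap Dox 3 (0.74, adjusted p = 0.060) or Lats1/2 KO 3 (0.75, adjusted p = 0.054) and with total counts alone (0.39, adjusted p = 0.24). The 4 members called lower after induction depend on the scaling. With total counts alone the median of all genes moved from 0.07 to 0.99, 24 members were called higher and 0 lower, and Ccl25, Ccl27a, Cxcl11 and Cxcl12 stood at −0.52, −0.29, −0.08 and −0.11. Relative to that median they were at −1.51, −1.28, −1.06 and −1.10. In the knockout the median moved from −0.03 to 0.44, and relative to it Ccl27a was at −0.78 and Cxcl11 at −1.34.

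The remaining CXC ligands were called higher in both comparisons. Cxcl16, a membrane-bound ligand of CXCR6 that also takes up oxidised lipids, rose from 1.48, 3.77, 4.15 and 4.91 CPM to 40.1, 39.3 and 65.6 CPM after induction (3.78, SE 0.35, adjusted p = 1.9e-09) and from 6.14, 2.38, 2.38 and 2.96 CPM to 14.2, 18.3 and 10.6 CPM in the knockout (2.04, SE 0.35, adjusted p = 8.9e-05), without overlap in either. Cxcl13, the B cell attractant that binds CXCR5, went from 0.636, 1.26, 0 and 0.802 CPM to 6.54, 5.88 and 17.2 CPM after induction (3.81, SE 0.64, adjusted p = 1.6e-05, and 3.15, adjusted p = 0.00025 without ApoYap Dox 3). Its knockout library 3 overlapped the controls, at 7.18, 3.15 and 1.49 CPM against 1.97, 0.341, 0.238 and 1.18 CPM (2.01, SE 0.65, adjusted p = 0.018). That call was lost without Lats1/2 KO 1 (1.27, adjusted p = 0.17), flox ctrl 2 (1.74, adjusted p = 0.056) or flox ctrl 3 (1.71, adjusted p = 0.055), and was 2.64, adjusted p = 0.0071 without flox ctrl 1. Cxcl14, a ligand made by epithelia and fibroblasts, had its highest value in Lats1/2 KO 1, while Lats1/2 KO 3 lay within the range of ApoYap Dox. It stood at 2.19, 3.07, 0.238 and 4.93 CPM in Lats1/2 flox ctrl and 24.8, 8.55 and 5.73 CPM in Lats1/2 KO (2.29, SE 0.58, adjusted p = 0.0035, lost at 1.43, adjusted p = 0.064 without Lats1/2 KO 1), against 0.918, 0.419, 1.35 and 0.301 CPM in ApoYap ctrl and 5.38, 7.06 and 6.80 CPM in ApoYap Dox (3.09, SE 0.65, adjusted p = 0.00025). The difference between the 2 effects on Cxcl14 was not called (−0.80, adjusted p = 0.54).

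Most of these ligands lie in clusters, a feature the choice by name did not use. On GRCm38 (GENCODE M21) 9 CC ligands lie on chromosome 11 between positions 82035571 and 83664683. Of these, 8 could be tested, and 8 were called higher after induction and 7 in the knockout, although 5 of the 8 passed the filter only through the libraries with raised YAP activity. The CXC cluster on chromosome 5 holds 7 members between 90759360 and 95961068, and of 6 tested 3 were called higher and 1 lower in each comparison. Chromosome 9 holds 12 of the 18 receptors, with 7 of 9 tested members called higher after induction and 5 in the knockout. Of those tested, Cx3cr1, Xcr1, Ccr1, Ccr2 and Ccr3 passed the filter only through the libraries with raised YAP activity. Beside these clusters, 35.0% of all tested genes were called higher and 32.0% lower after induction, and 20.6% and 17.4% in the knockout. The 250 bases before the start site of 5 ligands are shown because they come as neighbours with unlike values: Cxcl1 and Cxcl2 on the plus strand of chromosome 5, Ccl9 and Ccl6 on the minus strand of chromosome 11, and the interferon target Cxcl10 on the minus strand of chromosome 5. They are RefSeq windows on GRCm38.p6, at chr5:90890995-90891244, chr5:90903649-90903898, chr11:83578637-83578886, chr11:83593088-83593337 and chr5:92348890-92349139, printed 5′ to 3′ on the gene's strand. Capitals mark matches, on either strand, to the kappa B motif (GGG, any 2 bases, TTTCC) in Cxcl1, Cxcl2 and Ccl9 and to the interferon response motif (GAAA, any 2 bases, GAAA) in Cxcl10, and the Ccl6 window holds no match to either motif.
Cxcl1: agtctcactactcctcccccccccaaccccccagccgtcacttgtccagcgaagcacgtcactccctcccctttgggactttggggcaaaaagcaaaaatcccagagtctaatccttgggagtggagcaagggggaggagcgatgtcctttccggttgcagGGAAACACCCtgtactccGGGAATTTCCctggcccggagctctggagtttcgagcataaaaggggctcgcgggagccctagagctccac
Cxcl2: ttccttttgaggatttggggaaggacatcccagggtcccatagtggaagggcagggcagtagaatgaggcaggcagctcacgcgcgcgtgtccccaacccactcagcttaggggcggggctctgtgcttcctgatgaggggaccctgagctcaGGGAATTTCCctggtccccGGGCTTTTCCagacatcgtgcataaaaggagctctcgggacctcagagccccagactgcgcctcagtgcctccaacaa
Ccl9: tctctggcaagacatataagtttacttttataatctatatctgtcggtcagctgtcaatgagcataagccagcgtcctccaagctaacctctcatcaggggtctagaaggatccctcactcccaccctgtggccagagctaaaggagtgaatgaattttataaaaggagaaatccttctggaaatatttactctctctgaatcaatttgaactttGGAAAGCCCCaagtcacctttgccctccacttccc
Ccl6: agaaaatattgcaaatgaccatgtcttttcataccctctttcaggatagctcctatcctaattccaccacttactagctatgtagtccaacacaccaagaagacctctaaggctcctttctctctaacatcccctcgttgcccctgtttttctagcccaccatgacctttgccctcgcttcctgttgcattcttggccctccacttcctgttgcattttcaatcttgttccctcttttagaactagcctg
Cxcl10: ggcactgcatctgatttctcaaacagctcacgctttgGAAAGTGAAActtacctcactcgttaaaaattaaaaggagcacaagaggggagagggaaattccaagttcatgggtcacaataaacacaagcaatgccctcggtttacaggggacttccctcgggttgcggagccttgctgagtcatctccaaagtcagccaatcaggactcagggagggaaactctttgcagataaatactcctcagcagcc

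Cxcl1 and Cxcl2 each hold 2 kappa B matches and share the 14-base run GGGAATTTCCctgg. Cxcl2 was called higher after induction and Cxcl1 was not, and the part of these matches in the levels was not tested. Promoter windows were given for 34 of the 46 members. In 300-base windows that run past the start, the kappa B motif in the form given above was found for 4 of 34 members (Ccl9, Ccr3, Cxcl1 and Cxcl2) and in 1.63% of 32851 promoters. The interferon motif was found for 2 (Cxcl10 and Cxcl14) and in 3.44%. The letters GGAATG, the core motif of the TEAD factors that YAP binds, were found for 3 of 34 members (Ccl17, Cxcl13 and Cxcr2) and in 14.7% of all promoters. These matches describe letters in the window only. Other forms of the 3 motifs were not searched, so a window without a match may still hold such a site.

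Of 8 tested signalling receptors, 7 were called higher after induction and 5 in the knockout, against 35.0% and 20.6% of all tested genes. None was called lower, but 6 of the 8 passed the filter only through the libraries with raised YAP activity. Cx3cr1 (chromosome 9, 119901616 to 120069879), the fractalkine receptor of monocytes and macrophages, stood at 0.494, 0.671, 0.519 and 0.401 CPM in ApoYap ctrl and 81.7, 34.5 and 109 CPM in ApoYap Dox (7.13, SE 0.53, adjusted p = 1.7e-10). In the knockout it was at 4.24, 7.39 and 2.49 CPM against 1.97, 0.114, 1.19 and 1.08 CPM, also without overlap (2.08, SE 0.53, adjusted p = 0.0035). Ccr2 (chromosome 9, 124101950 to 124113557), the receptor by which blood monocytes follow Ccl2, rose from 0.283, 0.168, 0.415 and 0 CPM to 35.5, 15.9 and 58.6 CPM after induction (7.32, SE 0.69, adjusted p = 4.6e-09). Its knockout libraries were at 1.47, 6.84 and 1.70 CPM against 0.768, 0.454, 0.476 and 0.197 CPM (2.81, SE 0.69, adjusted p = 0.0027), and without the high library Lats1/2 KO 2 the call was lost (1.75, adjusted p = 0.057).

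Ccr1 and Cxcr4 had almost no counts in controls, so their fold changes are given as bounds or count ratios. Ccr1, a receptor of myeloid cells for Ccl3 and Ccl9, had no count in the 4 ApoYap ctrl libraries and 36, 22 and 83 counts in ApoYap Dox, at least 30.5-fold higher with the controls set to 3 counts. The knockout libraries had 6, 2 and 6 counts against 1 in all 4 controls, a ratio of 11.3 (95% interval 1.72 to 479), and the fitted difference missed the threshold (3.10, adjusted p = 0.051). It was called with RLE scaling (3.15, adjusted p = 0.049), with total counts alone (3.46, adjusted p = 0.021) and in 2 of 7 fits with 1 library left out. Cxcr4, the receptor of Cxcl12 on many leukocytes, had 3 counts before and 328 after induction, a ratio of 70.8 (95% interval 24.0 to 345). Without ApoYap Dox 3 the fitted log2 value of Ccr1 went from 7.65 to 6.75, adjusted p = 6.5e-05, and that of Cxcr4 from 5.99 to 5.24, adjusted p = 0.00013. In Lats1/2 flox ctrl it had none, against 9, 11 and 4 counts in the knockout, at least 6.48-fold higher (adjusted p = 0.013). Ccr3, the eosinophil receptor for Ccl24, stood at 0, 0, 0.312 and 0.100 CPM and 3.43, 3.76 and 6.66 CPM in ApoYap ctrl and Dox (5.53, SE 0.67, adjusted p = 4.5e-07, and 6.91, adjusted p = 3.7e-07 without ApoYap ctrl 3). In the knockout Ccr3 had 4, 2 and 6 counts against none in the controls, at least 3.24-fold higher (adjusted p = 0.013). Xcr1, a receptor of cross-presenting dendritic cells, was at 0.0706, 0.755, 0.831 and 0.201 CPM in ApoYap ctrl and 1.48, 0.769 and 1.83 CPM in ApoYap Dox, and the groups overlapped (1.57, SE 0.63, adjusted p = 0.031). That call was lost without any of ApoYap ctrl 1 (1.17, adjusted p = 0.11), ApoYap ctrl 4 (1.35, adjusted p = 0.083), ApoYap Dox 1 (1.5, adjusted p = 0.073) and ApoYap Dox 3 (1.31, adjusted p = 0.11). The knockout difference of Xcr1 was −0.30 (adjusted p = 0.75). Cxcr5, the follicular receptor of B cells, was called in neither comparison (−0.49 and 0.03, adjusted p = 0.17 and 0.95).

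Of 3 tested atypical receptors, 2 were called higher in both comparisons, against 35.0% and 20.6% of all tested genes. One of these, Ackr1, passed the filter only through the libraries with raised YAP activity. Ackr1, which carries chemokines across venous endothelium, was at 0.353, 0.838, 0.415 and 1.30 CPM in ApoYap ctrl and 2.53, 2.85 and 5.12 CPM in ApoYap Dox (2.27, SE 0.57, adjusted p = 0.0011), and at 0.549, 0.114, 0.596 and 1.18 CPM in Lats1/2 flox ctrl and 2.34, 4.31 and 1.49 CPM in Lats1/2 KO (2.10, SE 0.60, adjusted p = 0.0077). The treated libraries were above all their controls in both. Ackr2, a scavenger of inflammatory CC chemokines, was called higher by 1.13 (SE 0.36, adjusted p = 0.0069) and 1.20 (SE 0.39, adjusted p = 0.016), with ranges of 1.06 to 2.6 CPM in ApoYap ctrl, 3.30 to 4.97 CPM in ApoYap Dox, 0.953 to 1.77 CPM in Lats1/2 flox ctrl and 1.99 to 3.90 CPM in Lats1/2 KO. Without Lats1/2 KO 2 the knockout calls of Ackr1 (1.59, adjusted p = 0.080) and Ackr2 (0.95, adjusted p = 0.11) were lost. Ackr4, which clears Ccl25 and other ligands, was not called (−0.78 and −0.38, adjusted p = 0.12 and 0.54).

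The 15 members below the filter had 10 to 112 counts over the 25 libraries and were not tested. Ackr3, the atypical receptor of Cxcl12, had 3 counts in untreated and 49 in induced ApoYap libraries, a ratio of 10.6 (95% interval 3.42 to 53.1), and 2 and 16 in Lats1/2 flox ctrl and KO. Cx3cl1, the ligand of Cx3cr1, had 3 and 32 counts in ApoYap ctrl and Dox and 3 and 17 in Lats1/2 flox ctrl and KO. Several were absent from ApoYap ctrl, and their counts in ApoYap Dox were 42 for Xcl1, 32 for the neutrophil receptor Cxcr2, 27 for Cxcr3, a chemokine receptor of T cells, 15 for Ccl8, 14 for Cxcl17, 9 for Ccr4, 5 for Cxcl5 and 1 for Ccl28. With the controls set to 3 counts this is at least 9.07-fold higher for Xcl1, 6.91-fold for Cxcr2 and 5.83-fold for Cxcr3. Ccl17 had 19 counts in ApoYap Dox and 17 in Lats1/2 KO against 1 and 0 in their controls. The others were Cxcr6 with 2 and 23 counts in ApoYap ctrl and Dox, Ccr7 with 1 and 12, Ccl22 with 1 and 6, and Ccr9 with 8 and 42. At so few counts these members show little about the other groups at this depth.

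**Figure D3:**
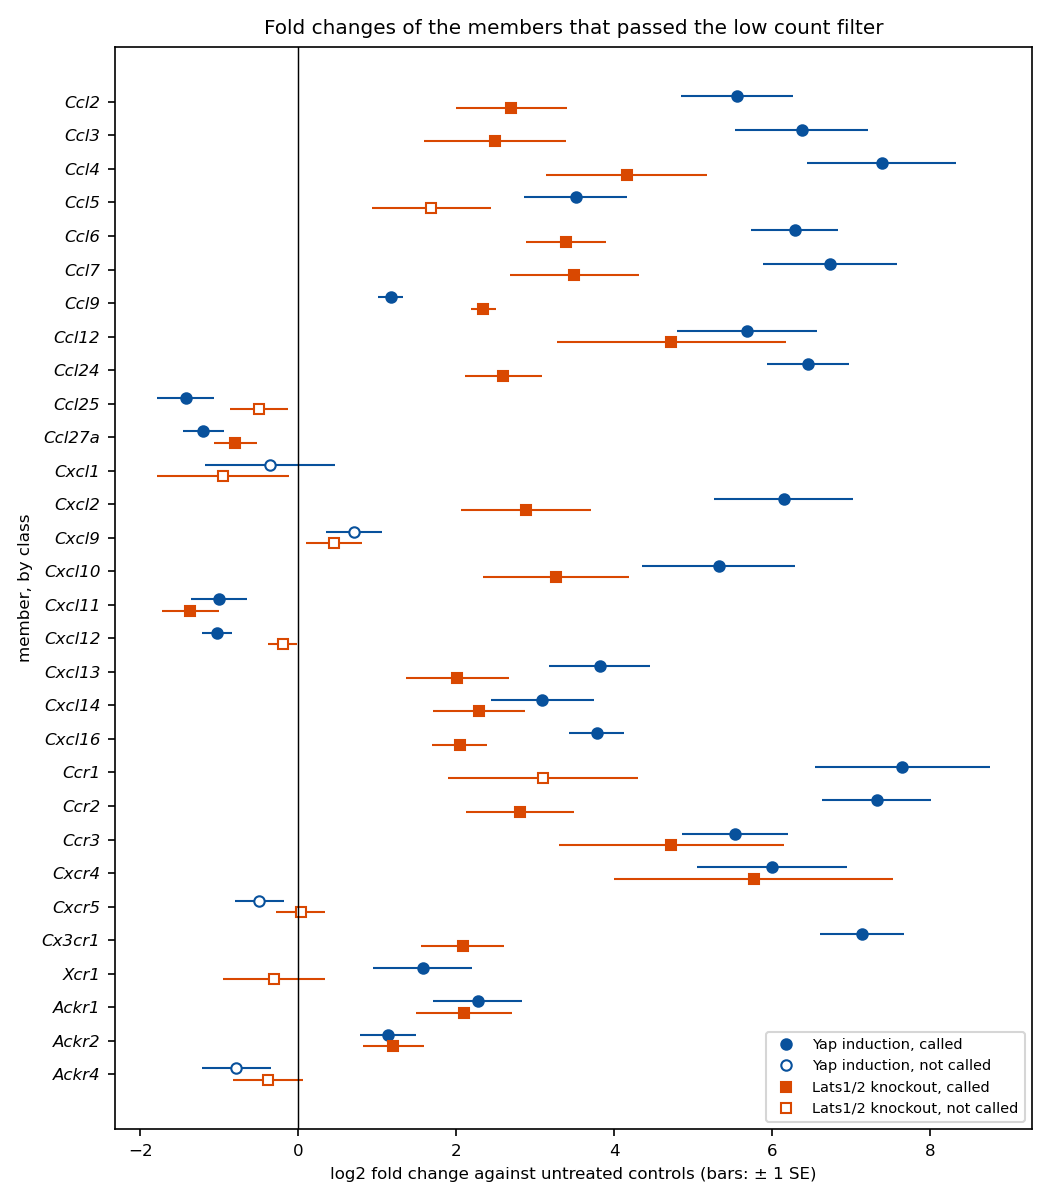
Log2 fold change with ± 1 SE of 30 of the 31 tested members, for induction of YAP (blue circles) and the Lats1/2 knockout (red squares) against their own untreated controls, filled where the adjusted p was under 0.05. Fitted values of Ccl12, Ccr1 and Cxcr4 in both comparisons, of Ccl4 after induction and of Ccr3 in the knockout rest on 3 or fewer control counts and depend on the prior count, and Ccl9, Cxcl12, Ccl25 and Ccl27a stand apart from the long row of high blue circles.

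The shares of the members in their summed level are given as a description. In ApoYap ctrl, Cxcl12 made up 37.3% ± 2.57 (SD, n = 4) of the summed ligand CPM, Ccl9 25.5% ± 4.62 (SD, n = 4) and Cxcl1 18.9% ± 6.83 (SD, n = 4). In ApoYap Dox the leading ligand was Ccl6 with 43.5% ± 0.873 (SD, n = 3), followed by Cxcl2 with 13.1% ± 3.00 (SD, n = 3) and Ccl9 with 12.2% ± 3.06 (SD, n = 3). In Lats1/2 KO it was Ccl9 with 45.5% ± 4.15 (SD, n = 3), followed by Cxcl12 with 16.6% ± 6.08 (SD, n = 3), while in Lats1/2 flox ctrl Cxcl12 and Cxcl1 led with 34.7% ± 5.73 (SD, n = 4) and 31.0% ± 9.67 (SD, n = 4). Among receptors Cx3cr1 and Ccr2 made up 34.5% ± 5.30 (SD, n = 3) and 16.5% ± 3.15 (SD, n = 3) of the summed CPM in ApoYap Dox. Cxcr5, Ackr2 and Ackr4 led in ApoYap ctrl with 21.6% ± 7.27 (SD, n = 4), 20.2% ± 6.02 (SD, n = 4) and 17.9% ± 5.96 (SD, n = 4).

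Levels were also set against the summed level of the 15 macrophage markers in the same library. Ccl6 was 3.91% ± 0.498 (SD, n = 4) of that sum in ApoYap ctrl and 6.45% ± 1.52 (SD, n = 3) in ApoYap Dox, and 4.46% ± 0.526 (SD, n = 4) in Lats1/2 flox ctrl and 7.37% ± 0.762 (SD, n = 3) in Lats1/2 KO, without overlap in either pair. Ccl2 was 0.340% ± 0.0433 (SD, n = 4) and 0.342% ± 0.0923 (SD, n = 3) in ApoYap ctrl and Dox, so it lay in overlapping ranges before and after induction. Cxcl16 was 1.86% ± 0.469 (SD, n = 4) in ApoYap ctrl and 0.550% ± 0.0131 (SD, n = 3) in ApoYap Dox, and its induced libraries lay below all controls on this scale. Ccl9 went from 39.9% ± 18.9 (SD, n = 4) to 1.85% ± 0.759 (SD, n = 3) after induction, and was 42.2% ± 20.4 (SD, n = 4) in Lats1/2 flox ctrl and 33.4% ± 17.5 (SD, n = 3) in Lats1/2 KO. Cxcl12 was 57.3% ± 20.2 (SD, n = 4) and 0.594% ± 0.209 (SD, n = 3) in ApoYap ctrl and Dox. The ratio to the marker sum is a description of the libraries and was given no test.

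**Figure D4:**
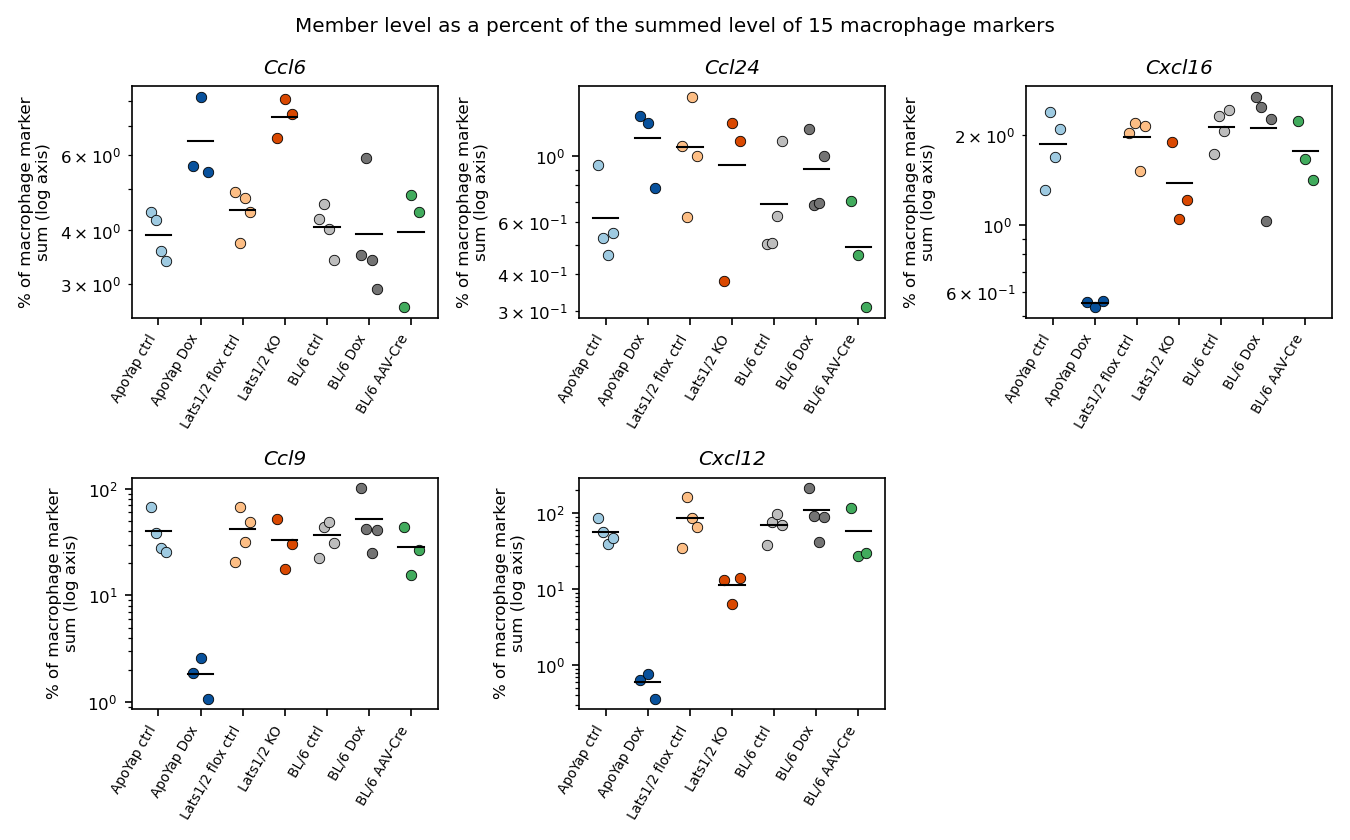
CPM of 5 members as a percent of the summed CPM of 15 macrophage markers in the same library, on log axes, with the group mean as a line. Ccl6 is higher in ApoYap Dox and Lats1/2 KO than in their controls, and Cxcl16, Ccl9 and Cxcl12 are lowest in ApoYap Dox.

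The 2 ways of raising YAP activity were then compared with each other as the difference between their effects, each against its own untreated strain. Of the 31 members, 2 had a higher effect in the knockout and 9 a lower one, against 17.4% and 12.4% of all tested genes. Ccl9 (1.17) and Cxcl12 (0.83) were the 2 with the higher effect, and with total counts alone Ccl9 kept its call (0.73, adjusted p = 0.0085) and Cxcl12 did not (0.39, adjusted p = 0.24). The lower ones included Cx3cr1 (−5.05, SE 0.82, adjusted p = 7.7e-05), Ccr2 (−4.51, SE 1.15, adjusted p = 0.0050), Ccl24 (−3.86, SE 0.74, adjusted p = 0.00045), Ccl6 (−2.90, SE 0.71, adjusted p = 0.0044) and Cxcl16 (−1.74, SE 0.49, adjusted p = 0.010). Those 5 kept their call whichever library was left out, and without Lats1/2 KO 2 Ccr2 was −5.57 and Ccl24 −4.71. Ccl3 (−3.88, adjusted p = 0.046), Cxcl2 (−3.25, adjusted p = 0.049) and Ccl2 (−2.85, adjusted p = 0.047) were near the threshold, and lost their call in 10, 11 and 10 of the 14 fits with 1 library left out. In those fits the highest adjusted p was 0.198 for Ccl2 (without Lats1/2 flox ctrl 4), 0.140 for Ccl3 (without Lats1/2 flox ctrl 1) and 0.106 for Cxcl2 (without ApoYap Dox 3). Ccl2 was then −2.18 without Lats1/2 flox ctrl 4, and Cxcl2 −4.27 without Lats1/2 KO 1. The summed macrophage markers differed between the treated groups in the same direction, as given above, and their part in these differences was not tested.

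The BL/6 groups show the agents without the alleles, and both comparisons share the BL/6 ctrl libraries. Doxycycline water gave no call among the 31 members, against 0.0231% higher and 0.100% lower of all tested genes (edgeR), and by DESeq2 it also gave 0. An unadjusted p under 0.05 was seen for 2 of 31 members (6.45%) and 11.9% of all tested genes. The 2 members were Cxcl1, at 16.5, 11.9, 56.6 and 53.1 CPM against 64.5, 149.8, 77.6 and 197 CPM in BL/6 ctrl (−1.81, SE 0.79, adjusted p = 0.37), and Cxcr5, at 2.26, 2.38, 2.26 and 2.72 CPM against 1.34, 1.19, 1.53 and 1.35 CPM (0.82, SE 0.32, adjusted p = 0.30). All 4 doxycycline libraries were below the untreated ones for Cxcl1 and above them for Cxcr5. In all, 1 member was higher and 2 were lower with no overlap, against 3.33% and 3.29% of all tested genes.

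At 24 hours after the Cre virus no member was called by edgeR either, against 0.254% higher and 0.0463% lower of all tested genes, and 7 of 31 (22.6%) had an unadjusted p under 0.05, as had 13.3% of all tested genes. Ranges did not overlap for 1 higher and 3 lower members (8.30% and 7.52% of all tested genes). Cxcl11 was the nearest, at 3.84, 5.44 and 7.26 CPM against 1.49, 2.03, 2.47 and 2.03 CPM, with all virus libraries above all controls (1.47, SE 0.36, adjusted p = 0.068). It was the 1 member called by DESeq2 (1.47, adjusted p = 0.014), and was called by edgeR without AAV-Cre 1 (1.67, adjusted p = 0.037) or with only these groups in the fit (1.47, adjusted p = 0.011). Several inflammatory ligands were uneven in this group, with AAV-Cre 1 within or below the untreated range and AAV-Cre 2 and 3 above most of them. Cxcl1 was at 69.1, 475 and 565 CPM (1.60, SE 0.81, adjusted p = 0.41), Cxcl2 at 2.78, 14.1 and 12.7 CPM (1.24, SE 0.86, adjusted p = 0.57), Cxcl10 at 0.320, 13.5 and 11.2 CPM (1.87, SE 0.87, adjusted p = 0.37) and Ccl2 at 0.320, 6.74 and 4.37 CPM (1.99, SE 0.73, adjusted p = 0.23). Their untreated BL/6 ranges were 64.5 to 197, 1.06 to 10.7, 0.824 to 5.07 and 0.118 to 1.58 CPM. AAV-Cre 2 and 3 hold the highest Cxcl1 values of the 25 libraries. Cxcl1 made up 52.6% ± 25.2 (SD, n = 3) of the summed ligand CPM in this group.

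Each effect was also tested against that of its agent in BL/6 mice, with the same BL/6 ctrl libraries in both tests. Net of doxycycline, 22 members were higher and 4 lower after induction, where 26.7% and 27.4% of all tested genes were. The 4 lower members were Ccl25 (−1.53), Ccl27a (−1.18), Cxcl12 (−1.04) and Cxcr5 (−1.31), and Cxcl11 was no longer called (−0.86, SE 0.51, adjusted p = 0.15). With total counts alone 0 were called lower. Among the higher members, leaving out a single library ended the call of Ackr1 (without BL/6 ctrl 1, 1.93, adjusted p = 0.13, and also without BL/6 ctrl 4, ApoYap ctrl 1 or ApoYap Dox 3), Ackr2 (without BL/6 ctrl 1, 1.26, adjusted p = 0.067) and Cxcl13 (without BL/6 ctrl 1, 2.59, adjusted p = 0.14, or ApoYap Dox 3). It also ended that of Ccr1 (without BL/6 ctrl 1, 7.64, adjusted p = 1.0, where its log2 value over all fits with 1 library left out ran from 7.64 to 9.74), Cxcr4 (without BL/6 ctrl 4, 1.83, adjusted p = 0.84) and Xcr1 (without any of 8 libraries, among them ApoYap Dox 3, 2.12, adjusted p = 0.079). Net of the virus, 8 members were higher and 1 lower in the knockout (13% and 11.4% of all tested genes), with the limit that the virus control was taken at 24 hours and the knockout at 1 week. These were Ccl9 (2.53, SE 0.23, adjusted p = 7.0e-08), Cxcl16 (2.10, SE 0.52, adjusted p = 0.0054), Ccl6 (3.04, SE 0.74, adjusted p = 0.0057), Cxcl14 (3.52, SE 0.95, adjusted p = 0.010), Ccl24 (2.94, SE 0.85, adjusted p = 0.015), Ccl5, Cx3cr1 and Ackr1 as the higher ones and Cxcl11 (−2.84, SE 0.51, adjusted p = 0.00032) as the lower. The calls of Ccl5 (4.36), Cx3cr1 (3.30) and Ackr1 (2.97) were each lost without AAV-Cre 1 (adjusted p = 0.056, 0.058 and 0.10) and without Lats1/2 KO 2. The call of Cx3cr1 was also lost without AAV-Cre 2 or 3 or BL/6 ctrl 1 or 4, and that of Ackr1 without AAV-Cre 3, BL/6 ctrl 1 or 4 or Lats1/2 flox ctrl 1, 2 or 3. Without 1 library Cxcl14 ran from 2.66 (Lats1/2 KO 1) to 4.45 (AAV-Cre 2), Ccl24 was 2.09 without Lats1/2 KO 2, Ccl5 was 7.30 without AAV-Cre 3, and Ackr1 was 3.86 without AAV-Cre 2. Ccl2 (0.70, SE 1.06, adjusted p = 0.68) and Cxcl10 (1.40, SE 1.30, adjusted p = 0.47), called against the floxed controls, were not called net of the virus.

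The untreated strains were compared as well, again with the shared BL/6 ctrl libraries. No member was called between ApoYap ctrl and BL/6 ctrl (0.146% higher and 0.293% lower of all tested genes), with 4 of 31 (12.9%) at an unadjusted p under 0.05, as were 7.52% of all tested genes, and 0 called by DESeq2. In that comparison ranges did not overlap for 0 higher and 2 lower members (3.45% and 3.59% of all tested genes). Between Lats1/2 flox ctrl and BL/6 ctrl 1 was called, against 3.15% higher and 0.971% lower, and 2 were higher and 1 lower without overlap (7.83% and 5.89%). It was Cxcl11, at 3.51, 7.38, 4.29 and 5.23 CPM against 1.49, 2.03, 2.47 and 2.03 CPM (1.36, SE 0.34, adjusted p = 0.022), and it was lost without Lats1/2 flox ctrl 2 (1.13, adjusted p = 0.082), BL/6 ctrl 1 (1.23, adjusted p = 0.083) or BL/6 ctrl 4 (1.37, adjusted p = 0.062).

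Other genes of the chemokine pathway were followed as 4 lists. Beside them, 35.0% of all tested genes were called higher and 32.0% lower after induction, and 20.6% and 17.4% in the knockout. Which genes of the 4 lists passed the filter only through the libraries with raised YAP activity was not examined. The shares called may therefore be partly set by the filter. Of 7 ligands and receptors outside the name rule, 5 were called higher and 2 lower after induction, and 4 higher in the knockout. Pf4, a platelet and macrophage chemokine, rose by 6.47 (SE 0.47, adjusted p = 6.9e-11) and 3.54 (SE 0.55, adjusted p = 3.1e-05), and the chemerin receptor Cmklr1 by 5.66 and 2.62. Its ligand Rarres2, made by hepatocytes, fell by 2.19 after induction (SE 0.21, adjusted p = 2.4e-09) and differed by −0.21 in the knockout (adjusted p = 0.43). Of 23 genes that carry the receptor signal, 20 were called higher in each comparison and Gnai3, named here after its values were seen, was the 1 called lower after induction (−0.98, SE 0.22, adjusted p = 0.00035). Gnai2, the inhibitory G protein subunit of leukocytes, rose by 2.19 and 1.06, the receptor kinase Grk2 by 2.53 and 0.70, the arrestin Arrb2 by 4.30 and 1.78 and the myeloid kinase Fgr by 5.24 and 3.26. Of 4 tested proteases that trim chemokines, 3 were called higher in both, Mmp9 by 7.69 and 1.60, Mmp12 by 7.07 and 5.63 and Mmp2 by 1.54 and 3.17, while Dpp4 was at 0.00 and 0.08 and was called in neither. Mmp8, Ctsg and Elane were also listed but were not among the tested genes. Several genes of these lists are also expressed by macrophages, whose markers rose as given above, and the part of those cells was not tested.

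Of 20 tested inducers of chemokines and factors of the NF-kB pathway, 18 were called higher after induction and 7 in the knockout. The shares of all tested genes called higher were 35.0% and 20.6%. The median log2 fold change of this list was 2.76 after induction and 0.38 in the knockout. The difference between the counts of 18 and 7 was not tested. Vcam1, an adhesion molecule for leukocytes, rose by 5.13 (SE 0.42, adjusted p = 1.2e-09) and 2.54 (SE 0.40, adjusted p = 5.6e-05), the endotoxin receptor Tlr4 by 4.63 and 2.79, and the cytokine Il1b by 5.28 and 2.73. Il6, a cytokine that drives the acute phase response, had 2 counts before and 311 after induction, and 1 in Lats1/2 flox ctrl and 17 in Lats1/2 KO (adjusted p = 1.1e-06 and 0.049). Il1b was at 38.5, 17.7 and 1.86 CPM in Lats1/2 KO, with the same order of libraries as Cxcl1 and Cxcl2.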

How the data were processed

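Hepatocytes were isolated by collagenase perfusion, enriched by spins at 50 g and sorted by FACS, and RNA of a fixed number of cells per sample was made into QuantSeq 3′ FWD libraries, per the labels' protocols. The deposited table holds raw counts per gene for 25 libraries. The authors made these counts with FastQC, cutadapt and STAR 2.6.1d on mm10 (GRCm38), per the submitters' processing notes, while the counting tool, its annotation and its strand setting were not given in the sources used here. Values of related neighbouring genes, such as Cxcl1 and Cxcl2 or the Ccl clusters, are therefore uncertain if reads were split between them, which was not tested.

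Tests were run with edgeR 4.0.16 under R 4.3.3. Of 37117 symbols, 12970 passed filterByExpr (minimum count 10, minimum total 15). Libraries were scaled by TMM, 1 mean per group was fitted over all 25 libraries with the robust quasi-likelihood fit, and contrasts were adjusted by Benjamini-Hochberg over all tested genes, with calls at 0.05. Fold changes are log2 values with a prior count of 0.125, with SE from the fit. Where a control group had 0 counts it was set to 3 counts over its libraries and a lower bound is given, and with 1 to 3 counts the ratio has an exact binomial 95% interval. Depth was 8107539 to 16515330 counts per library. No pair of replicate libraries agreed within sampling noise (lowest chi-square per degree of freedom 8.29). Alternatives were DESeq2 1.42.0, RLE scaling, total counts alone, no filter on low counts, only the groups of a contrast, the replicate number as a block, each library left out, and BL/6 Dox 1 and 2 left out together. The edgeR fit was tested on simulated counts.

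The members, the pathway lists and the marker lists were chosen with earlier results of these data known. Called members were named in full, uncalled ones with their log2 difference, members below the filter with counts, and up to 4 genes of each pathway list with the smallest p after induction. Positions are from GENCODE M21 and promoters from RefSeq on GRCm38.p6. A planned comparison of the proteins was not made. The counts include 1 member whose own values are not reported here.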

Additional observations from a re-analysis of the deposited data

Results flagged for a closer look

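Single libraries stood apart within groups of 4 for 12 of 124 combinations of member and group examined. The rule is set to 5.0% by chance for normally distributed values. Where all other libraries of a group were at 0, any count stood apart, so the 12 cannot be set against that rate. Among them were higher libraries of Ccl3 in BL/6 ctrl 4 with 1.58 CPM, Ccl9 in BL/6 ctrl 2 with 81.9 CPM, Cxcr4 in BL/6 ctrl 4 with 0.676 CPM, and Cxcl16 in Lats1/2 flox ctrl 1 with 6.14 CPM. Ackr2 in BL/6 Dox 1 stood at 0.423 CPM. The others were a few counts above libraries at or near 0, with Ccl12 at 0.0838 CPM in ApoYap ctrl 2 and 0.130 CPM in BL/6 Dox 4, Ccl4 at 0.189 CPM in BL/6 Dox 3, and Ccr1 at 0.119 CPM in Lats1/2 flox ctrl 3 and 0.0786 CPM in BL/6 ctrl 1.

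The effects of the knockout and of YAP induction differed for 11 members by the test of their difference (log2, knockout minus induction). Ccl9 at 1.17 and Cxcl12 at 0.83 had the higher effect in the knockout. Members with the lower effect in the knockout included Cx3cr1 (−5.05), Ccr2 (−4.51), Ccl3 (−3.88), Ccl24 (−3.86), Cxcl2 (−3.25), Ccl6 (−2.90), Ccl2 (−2.85) and Cxcl16 (−1.74).

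The effect of doxycycline differed between ApoYap and BL/6 mice for 26 members, as a log2 difference. Among ligands the difference was 10.26 for Ccl4, 7.88 for Ccl7, 7.82 for Cxcl2, 7.70 for Ccl2, 7.06 for Ccl3, 6.90 for Cxcl10, 6.69 for Ccl6, 6.48 for Ccl24, 4.31 for Cxcl16, 4.24 for Ccl5, 4.12 for Cxcl14, 3.27 for Cxcl13 and 1.23 for Ccl9. Among receptors it was 9.43 for Ccr1, 8.76 for Cx3cr1, 8.61 for Ccr3, 7.14 for Ccr2, 5.86 for Cxcr4, 2.51 for Ackr1, 2.39 for Xcr1 and 1.60 for Ackr2. It was −1.53 for Ccl25, −1.31 for Cxcr5, −1.18 for Ccl27a and −1.04 for Cxcl12. Fitted differences of members with 0 to 3 counts in a group, such as Ccl4, Ccr1, Ccr3 and Cxcr4, depend on the prior count. Single libraries moved several of these differences by over 1.5-fold. Without BL/6 ctrl 4 it was 5.32 for Ccl3 (adjusted p = 0.030), 6.90 for Ccl7, 6.84 for Cxcl2, 6.20 for Cxcl10 and 1.83 for Cxcr4, and without BL/6 ctrl 1 it was 7.64 for Ccr1, 6.22 for Ccr2 and 2.59 for Cxcl13. Without BL/6 Dox 3 it was 12.99 for Ccl4, 8.72 for Cxcl2, 8.33 for Ccl2, 7.72 for Ccr2 and 7.56 for Cxcl10, without BL/6 Dox 2 7.94 for Ccl3 and 6.95 for Cxcr4, and without BL/6 Dox 4 8.91 for Ccl7. Without ApoYap Dox 3 it was 8.50 for Ccr1, 5.11 for Cxcr4, 3.63 for Ccl5 and 2.61 for Cxcl13, without ApoYap ctrl 2 8.65 for Ccl7, and without ApoYap ctrl 3 10.0 for Ccr3.

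The effect of the Cre virus differed between floxed mice at 1 week and BL/6 mice at 24 hours for 9 members, so the time differs along with the alleles. The log2 difference was 4.36 for Ccl5, 3.52 for Cxcl14, 3.30 for Cx3cr1, 3.04 for Ccl6, 2.97 for Ackr1, 2.94 for Ccl24, 2.53 for Ccl9, 2.10 for Cxcl16 and −2.84 for Cxcl11. Without Lats1/2 KO 1 Cxcl14 was 2.66, without Lats1/2 KO 2 Ccl24 was 2.09, without AAV-Cre 2 Cxcl14 was 4.45 and Ackr1 3.86, and without AAV-Cre 3 Ccl5 was 7.30.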

How the results depend on the processing

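Of 2087 values of single members under an alternative, 1926 kept their direction and call, 121 were no longer called, 26 were newly called and 14 changed sign. DESeq2 called 1 member higher after the virus. With total counts alone the counts were 24 higher and 0 lower for induction, 23 and 1 for the knockout, 0 lower net of doxycycline and 1 higher for knockout minus induction. With only the groups of the contrast in the fit they were 11 higher and 1 lower for the knockout, 1 higher after the virus, and 1 lower between the untreated ApoYap and BL/6 strains (Cxcl12, −0.41). Without the low count filter, 29 members were higher after induction, and 6 lower for knockout minus induction. Leaving out 1 library gave 22 to 26 higher and 3 to 4 lower for induction, 16 to 21 and 1 to 2 for the knockout, 0 to 1 higher after the virus, 18 to 22 higher net of doxycycline, 5 to 9 higher and 1 to 2 lower net of the virus, 1 to 2 higher and 6 to 9 lower for knockout minus induction, and 0 to 1 higher between the untreated floxed and BL/6 strains. Without BL/6 Dox 1 and 2 together, 19 were higher and 3 lower net of doxycycline. Values that changed sign were all of members not called: with total counts Ackr4 0.14, Cxcl1 0.54 and Cxcr5 0.42 for induction and Ackr4 0.078, Cxcl12 0.28 and Xcr1 0.16 for the knockout, and with 1 library left out Cxcl12 (−0.33 to 0.019), Ackr4 (−0.60 to 0.11), Xcr1 (−0.59 to 0.21) and Cxcr5 (−0.14 to 0.15) for the knockout. The cause was not tested. The labels do not say whether replicate numbers pair the libraries. The correlation of deviations between libraries of the same number ran from 0.052 to 0.164 for induction and from −0.24 to 0.022 for the knockout. Libraries correlated best with their own number in 2 of 3 pairs for induction and in 0 of 3 for the knockout. So few pairs cannot settle whether the numbers pair the libraries. With the replicate block, Cxcr5 was at −0.0080 in the knockout and 6 members were lower for knockout minus induction, where Ccl2 (adjusted p = 0.057), Ccl3 (0.058) and Cxcl2 (0.087) were no longer called. Members with fewer than 10 counts in a group were limited by depth.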
